A study of Rattus norvegicus with 15 samples.

Results

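Transcripts whose amount on the RNA-silencing protein Ago2 moved away from their amount in the cell after miR-17-5p was added were the subject of this comparison. Members were the 3362 genes, 19.7% of the 17055 in the deposited tables, that had at least 20 counts in every one of the 15 libraries, so that no value rested on a group without reads. Members were thus chosen by their raw counts in all libraries, with the same limit in each group. Genes under that limit were most numerous in the control libraries of Ago2-bound RNA, as given below. Among the genes at the limit were Ikbkg, Itga8 and Parvb, each with a lowest count of 20, and just outside it Dlc1, F5 and Fgfr1, each with a lowest count of 19. The quantity measured was a difference of changes on the log2 scale: the change in Ago2-bound RNA with miR-17-5p minus the change in mRNA.

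All libraries came from pancreatic islets of 10-day-old Sprague-Dawley rats, dispersed to cells and transfected either with a control mimic or with a mimic of miR-17-5p, a synthetic RNA that adds this microRNA. Part of the libraries held polyadenylated RNA (mRNA libraries), with 3 from control cells and 5 from miR-17-5p cells. The others held RNA recovered with a monoclonal antibody against Ago2 (RISC libraries, after the RNA-induced silencing complex), with 3 from control cells and 4 from miR-17-5p cells, and their labels state no selection for poly(A). Islet preparations hold endocrine and other cells, and in such bulk samples a change in the number of cells of a type and a change in RNA per cell cannot be told apart. Although the labels name the replicates as biological, a sample's title and its description can give different replicate numbers. The p-values below therefore cover only how far these libraries scatter, and part of that scatter may be technical.

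A microRNA guides Argonaute proteins such as Ago2 to messenger RNAs that pair with its seed, the bases near its 5′ end, and the bound messenger is then translated less and degraded faster. A target of an added microRNA can therefore gain in Ago2-bound RNA while its level in the cell stays the same or drops. The miR-17 family comes from related gene clusters, is known for restraining cell cycle inhibitors, TGF-beta signalling and pro-apoptotic genes, and is active in growing tissue.

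To show what was added to the cells, the mature rat miR-17-5p is given first, followed by the other mature rat microRNAs with the same seed, all from RefSeq (assembly GRCr8), with bases 2 to 8 in capitals.
rno-miR-17-5p: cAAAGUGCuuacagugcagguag
rno-miR-20a-5p: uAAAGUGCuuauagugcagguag
rno-miR-20b-5p: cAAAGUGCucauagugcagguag
rno-miR-93-5p: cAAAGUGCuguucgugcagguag
rno-miR-106b-5p: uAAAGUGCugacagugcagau
These were 5 names among 724 mature entries of the table. The sequence of miR-17-5p lies at chr15:98587861-98587883 on the plus strand, and an identical entry lies at chrX:137343615-137343637 on the minus strand. Set side by side from the 5′ end, miR-20a-5p and miR-20b-5p matched it at 21 of 23 positions and miR-93-5p at 19. The shorter miR-106b-5p, of 21 bases, matched it at 18. A mimic of miR-17-5p thus carries the seed that all of these share.

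Library totals ran from 3379456 counts in control mRNA library 3 to 21056240 in miR-17-5p mRNA library 1, and the RISC libraries held 4185123 to 13420403. Members took up 77.0% to 91.6% of the counts of a library. The lowest count of a member fell in control mRNA library 3 for 2171 members and in control RISC library 3 for 471. Fewer genes were detected in control RISC than in the other groups. Of the 11418 genes tested for a difference, 4290, 4066 and 5849 had no count in control RISC libraries 1, 2 and 3. In miR-17-5p RISC libraries 947 to 2484 had none, and in mRNA libraries 11 to 656. Replicates lay closer together in mRNA than in RISC: over members the median SD of log2 CPM (counts scaled to library size) was 0.199 in control mRNA, 0.226 in miR-17-5p mRNA, 0.676 in control RISC and 0.357 in miR-17-5p RISC. Summed levels of genes of stellate cells and fibroblasts, which make matrix and contractile proteins, were 19700 to 33600 CPM in control mRNA, 37900 to 78000 in miR-17-5p mRNA, 11200 to 21300 in control RISC and 48500 to 52800 in miR-17-5p RISC (49 listed genes). Genes of macrophages and leukocytes summed to 0.638 to 206 CPM in control RISC and 395 to 505 in miR-17-5p RISC (20 genes), and to 130 to 499 in control mRNA and 286 to 690 in miR-17-5p mRNA. Acinar markers summed to 42.9 to 82.9 CPM in control RISC and 6.44 to 10.8 in miR-17-5p RISC, and to 15.3 to 58.2 and 26.8 to 188 in mRNA (21 genes). Beta cell transcription factors summed to 4470 to 4880 CPM in control RISC and 2890 to 3200 in miR-17-5p RISC, and to 1910 to 2290 and 1150 to 2010 in mRNA (20 genes). Red blood cell genes summed to 40.5 to 177 CPM in control mRNA and 11.7 to 29.8 in miR-17-5p mRNA (7 genes). In RISC their sums overlapped, at 0 to 13.9 and 0 to 7.66. Sums of endothelial and of Schwann cell and neural markers overlapped between transfections in both kinds of library.

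For 60 members Ago2-bound RNA gained on mRNA with miR-17-5p, and for 32 it lost. Called here means a Benjamini-Hochberg adjusted p under 0.05 over all 11418 genes tested (edgeR). The gains were led by Atp5a1, Ece1, Sorcs2, Nfasc, Cdh2 and Letm1, and the losses by LOC100188932, Rpl27, Rpl28, Atf4 and Atp5g1. The 92 called members were 2.74% of the members, while 13.4% of all genes tested were called. In the upward direction these shares were 1.78% of members and 13.0% of all genes, and in the downward direction 0.952% and 0.394%. Of the 1488 genes called higher in the whole table, 1023 had no count in any of the 3 control RISC libraries, and the rule leaves such genes out.

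For most members no difference was called. The difference had a median of −0.05 over members, with 5% of them below −1.19 and 5% above 1.04. Tested genes that were no members had a median of 1.01, so this center and the balance of gains and losses hold for members only. A difference of more than 1 in size, a doubling or halving of the ratio, was found in 446 members (13.3%). At an unadjusted p under 0.05 were 390 members (11.6%). Of the 60 members called higher, 40 had a higher estimate in RISC with a lower one in mRNA, and in the other 20 both estimates were higher. Of the 32 called lower, 24 were lower in RISC with a higher estimate in mRNA, and in the other 8 both were lower. Members called for this difference tend to have such opposite signs by selection, so the split is no separate support. Over all members the median change was −0.06 in mRNA and −0.10 in RISC. In mRNA alone 190 members were called, 137 higher and 53 lower, where 3.87% of all genes tested were called, 3.11% higher and 0.767% lower. In RISC alone 29 members were called, 26 higher and 3 lower, where 0.371% of all genes tested were called, 0.339% higher and 0.0318% lower. Called both in the difference and in mRNA were 10 members, where 5.65% of all members were called in mRNA. Called both in the difference and in RISC were 5, namely Atp5a1, Vim, Myo1c, Serpinh1 and Mmp2. In RISC 0.863% of all members were called. The difference is formed from both changes, so an overlap is no separate support.

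**Figure D1:**
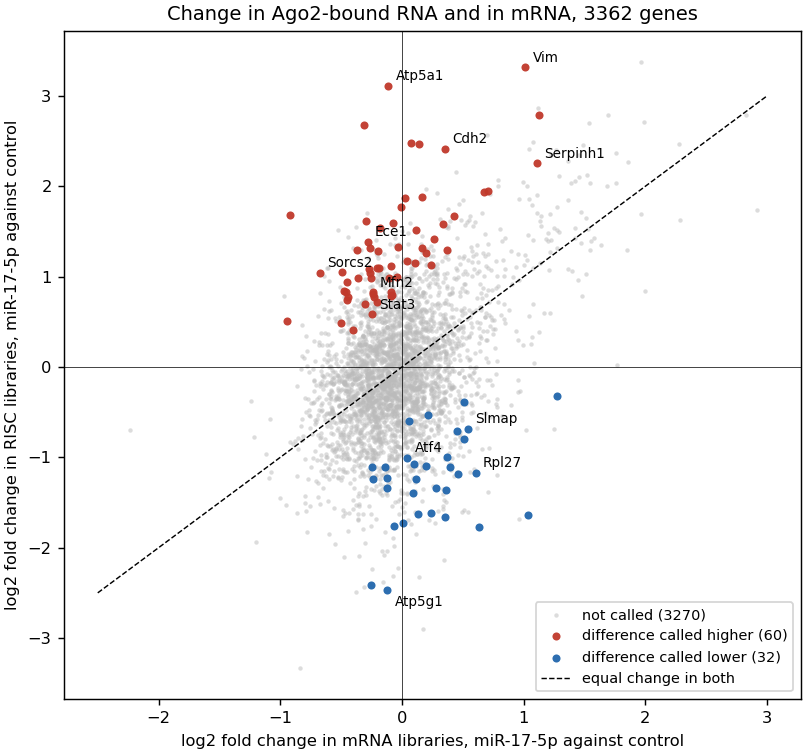
Each point is 1 of the 3362 members, with its log2 fold change (miR-17-5p against control) in mRNA libraries on the x axis and in RISC libraries on the y axis. The dashed line marks equal change, and the 60 members called higher in the difference lie above it and the 32 called lower below it.

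The calls rested on the fit and on the libraries in it. Limma-voom with quality weights, which allows RISC libraries a spread of their own, called 0 members, with 333 at an unadjusted p under 0.05 and a smallest adjusted p of 0.121. With DESeq2 size factors 38 members were called higher and 53 lower, against 60 and 32 with the main factors (TMM, trimmed mean of M values), and the median difference was −0.18.

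Leaving out 1 control RISC library at a time gave 255, 312 and 214 members called higher without libraries 1, 2 and 3. Leaving out control mRNA libraries 1, 2 and 3 gave 30, 31 and 46. Without miR-17-5p RISC libraries 2, 4, 5 and 6 there were 100, 125, 85 and 59 called higher, and without miR-17-5p mRNA libraries 1, 2, 4, 5 and 6 there were 57, 49, 44, 43 and 42. Called lower were 10 members without miR-17-5p RISC library 4 and 46 without control RISC library 2, the extremes over the 15 libraries. Within these changing totals, 29 of the 92 members were called each time, 24 higher and 5 lower. None of the 92 changed sign in the 25 alternative fits. Of these fits 24 tested all 92, and the fit with a mean of at least 500 counts tested 82. The 92 were picked for their difference in these same libraries, so a kept sign is no independent support. Among the genes called higher each time were Atp5a1, Ece1, Sorcs2, Nfasc, Cdh2, Letm1, Ptpn11, Dab2ip, Vim, Mlec, Col16a1, Myo1c, Ppfia1, Uchl1, Kpnb1, Xpnpep1, Phf21b, Nsf, Taf6, Skiv2l2, Trim35, Gna12 and Stat3. Those called lower each time were LOC100188932, Rpl27, Rpl28, Atf4 and Atp5g1.

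**Figure D2:**
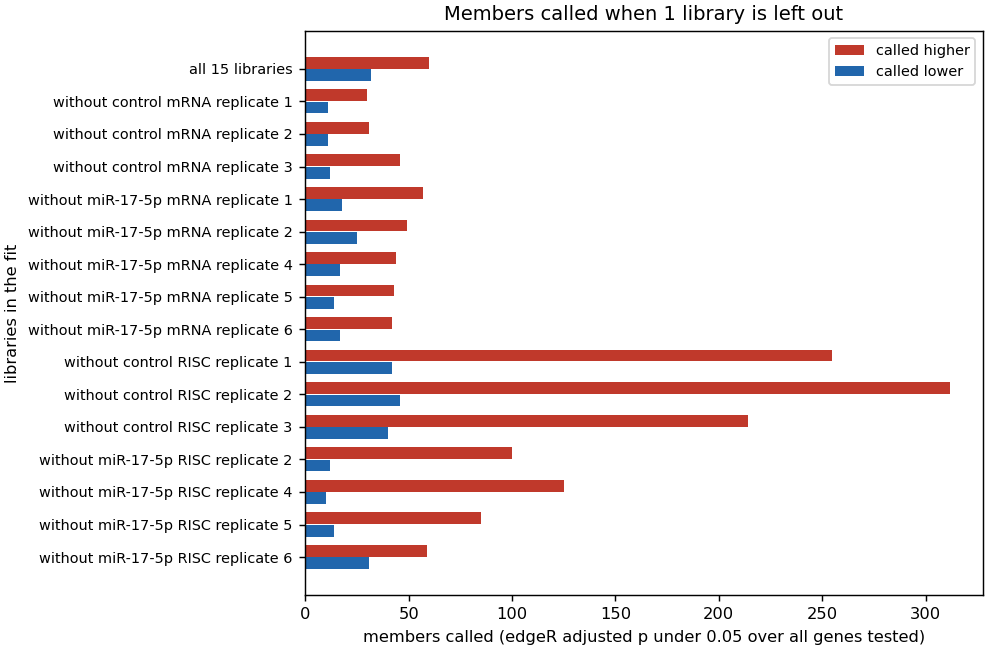
Bars give the number of members called higher (red) and lower (blue) in the difference, with all 15 libraries and with the named library left out. The counts called higher run from 30 without control mRNA replicate 1 to 312 without control RISC replicate 2.

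Of the genes with the smallest p, Ece1, Sorcs2 and Nfasc had higher values on Ago2 and lower values in mRNA in every treated library than in any control library. Ece1, which encodes the protease that matures endothelin, had 409, 493 and 375 CPM in control mRNA libraries 1, 2 and 3 and 355, 316, 339, 364 and 373 in miR-17-5p mRNA libraries 1, 2, 4, 5 and 6. In control RISC libraries 1, 2 and 3 it had 118, 177 and 222 CPM, and in miR-17-5p RISC libraries 2, 4, 5 and 6 it had 421, 362, 426 and 568. The treated libraries lay below the control ones in mRNA, by a narrow margin, and above them in RISC. The difference was 1.65 ± 0.28 (SE), with an adjusted p of 0.000985 (edgeR). The same 4 groups of libraries, in the same order, are used for the genes that follow.

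Sorcs2, a receptor of the sortilin family that sorts growth factors and their receptors, had 168, 110 and 147 CPM in control mRNA and 95.9, 89.2, 78.8, 87.7 and 92.6 in miR-17-5p mRNA. On Ago2 it had 32.9, 30.9 and 44.3 CPM in control cells and 74.9, 57.9, 79.4 and 80.1 with miR-17-5p. Every treated library was thus lower than every control in mRNA and higher in RISC. The mRNA itself fell, by 0.67 ± 0.14 on the log2 scale (adjusted p 0.0216, edgeR), and the difference was 1.69 ± 0.31 (adjusted p 0.00153). Nfasc, a neuronal adhesion molecule also made by endocrine cells, gave 332, 376 and 307 against 283, 230, 202, 256 and 254 CPM in mRNA and 295, 191 and 202 against 408, 422, 450 and 324 in RISC. Neither pair of groups overlapped, and the difference was 1.27 ± 0.25 (adjusted p 0.00293).

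Nsf, the ATPase that takes apart SNARE complexes after vesicle fusion, followed the same pattern, with 56.1, 66.1 and 61.2 CPM against 50.1, 39.0, 41.1, 48.5 and 43.8 in mRNA. On Ago2 it had 50.5, 57.2 and 54.7 CPM in control cells and 77.4, 135, 105 and 91.6 with miR-17-5p. The difference was 1.37 ± 0.34 (adjusted p 0.0141, edgeR). Other genes gained on Ago2 while their mRNA groups overlapped. Letm1, a cation exchanger of the inner mitochondrial membrane, had 21.0, 24.0 and 27.6 CPM in control RISC and 99.7, 81.1, 63.9 and 81.9 in miR-17-5p RISC, and its mRNA change was −0.01 ± 0.16. Ptpn11, the phosphatase SHP2 that relays growth factor signals, had 84.8, 67.0 and 44.5 against 175, 228, 186 and 147 CPM in RISC, with an mRNA change of 0.12 ± 0.11. Dab2ip, a Ras GTPase-activating protein, had 44.5, 42.9 and 23.3 against 133, 85.5, 98.5 and 120 CPM in RISC, with an mRNA change of −0.07 ± 0.14. For these 3 genes the RISC groups did not overlap, and the differences were 1.77 ± 0.36, 1.38 ± 0.28 and 1.64 ± 0.35 (adjusted p 0.00384, 0.00413 and 0.0055).

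**Figure D3:**
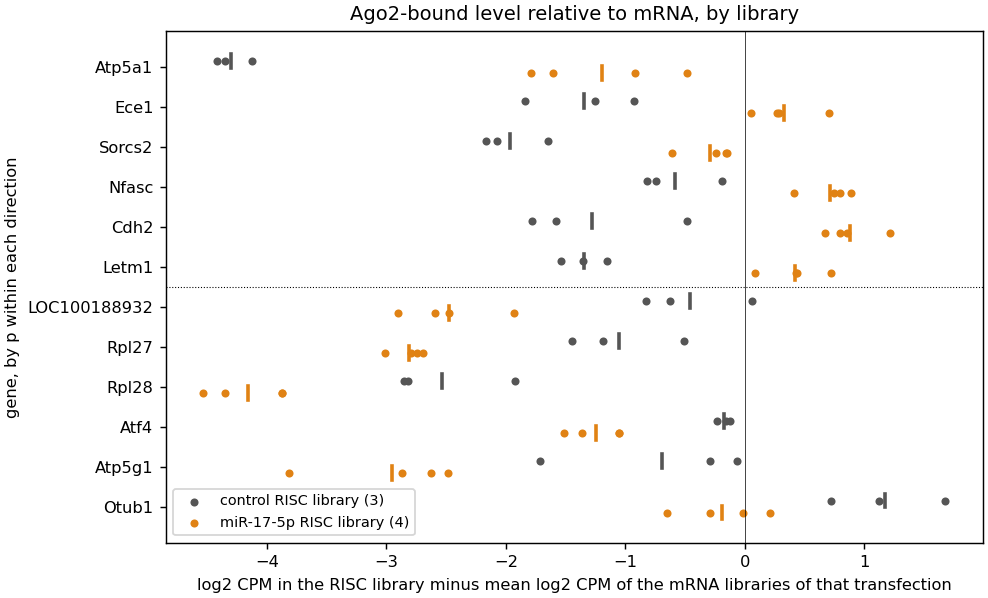
For the 6 members with the smallest p in each direction, each point is 1 RISC library (gray, control; orange, miR-17-5p), placed at its log2 CPM minus the mean log2 CPM of the mRNA libraries of that transfection, and ticks mark group means. In the 6 upper genes every miR-17-5p library lies to the right of every control library, and in the 6 lower genes to the left. These genes were picked for their difference in the same libraries.

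Known or commonly cited targets of the miR-17 family, a list written from general knowledge, held 37 members, of which 3 were called higher in the difference (Stat3, Mfn2 and Fyco1) and none lower. That share stands above the 1.78% of all members and below the 13.0% of all genes tested. The list's median difference was 0.24, against −0.05 for all members, and 29 of 37 lay above 0, while over all 69 listed genes that were tested the median was 0.40, the same as the 0.40 of all 11418 genes tested. Its members ranged from −0.61 for Hif1a, the hypoxia-induced transcription factor, to 1.56 for Fyco1. Summed over the 37 members, levels were 5334 to 5624 CPM in control mRNA, 4811 to 5163 in miR-17-5p mRNA, 5864 to 6263 in control RISC and 7197 to 7671 in miR-17-5p RISC. These sums did not overlap between transfections in either kind of library. That was not particular to this list. Sums of the cytoskeleton and adhesion, the stellate and fibroblast and the translation factor members did not overlap either, and were higher in treated libraries of both kinds. For cytoskeleton and adhesion they were 11290 to 12390 CPM in control RISC and 18000 to 18630 in miR-17-5p RISC.

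With DESeq2 size factors 23 of the 37 lay above 0 and 1 was called, at a median of 0.12 that stood 0.30 above that of all members. The number of listed targets called was 7 without control RISC library 1, 6 without control RISC library 2, and 1 without control mRNA library 1 or 3. It was 2 without control mRNA library 2 or without any 1 of the 5 miR-17-5p mRNA libraries, and 4 without miR-17-5p RISC library 2, 4 or 6.

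Stat3, a transcription factor that carries cytokine signals and a well-known target of this family, had 413, 393 and 427 CPM in control mRNA and 346, 298, 367, 339 and 374 in miR-17-5p mRNA. Its RISC libraries held 251, 236 and 363 CPM in control cells and 407, 401, 413 and 453 with miR-17-5p. Treated libraries were lower than all controls in mRNA and higher in RISC. The difference was 0.82 ± 0.21 (adjusted p 0.0184, edgeR). It was called with each library left out, but with DESeq2 size factors it was 0.67, with an adjusted p of 0.0622. Stat3 was also not called by limma-voom (adjusted p 0.121) or by edgeR with a mean of at least 500 counts (0.219). With a replicate block of title number, described below, its adjusted p was 0.111 within transfection and 0.0609 over both transfections (edgeR).

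Mfn2, which fuses the outer membranes of mitochondria, had 181, 159 and 176 against 163, 110, 153, 148 and 153 CPM in mRNA and 62.8, 117 and 89.5 against 153, 128, 174 and 175 in RISC. The groups overlapped in mRNA and not in RISC. The difference was 1.05 ± 0.29 (adjusted p 0.027, edgeR), and its adjusted p was 0.0698 without control mRNA library 1, 0.0582 without control mRNA library 3 and 0.0532 with DESeq2 size factors. Fyco1, an adaptor that links autophagosomes to transport along microtubules, had 55.5, 49.0 and 44.5 against 44.2, 32.9, 47.3, 37.5 and 44.6 CPM in mRNA and 30.6, 24.0 and 19.8 against 79.8, 48.3, 65.9 and 48.9 in RISC. Here too only the RISC groups were apart. The difference was 1.56 ± 0.46 (adjusted p 0.0342), and leaving out any 1 of the 8 mRNA libraries raised the adjusted p to between 0.0528 and 0.0993. Without a filter on low counts it was 0.0549.

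Other listed targets did not pass the test. Cdkn1a, the cell cycle inhibitor p21, had a difference of 0.90, and Sqstm1, an autophagy receptor, 0.71. Ccnd1 and Ccnd2, cyclins of the G1 phase, had 0.18 and 0.45. Smad4 and Smad7, a mediator and an inhibitor of TGF-beta signalling, had 0.13 and 0.09.

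**Figure D4:**
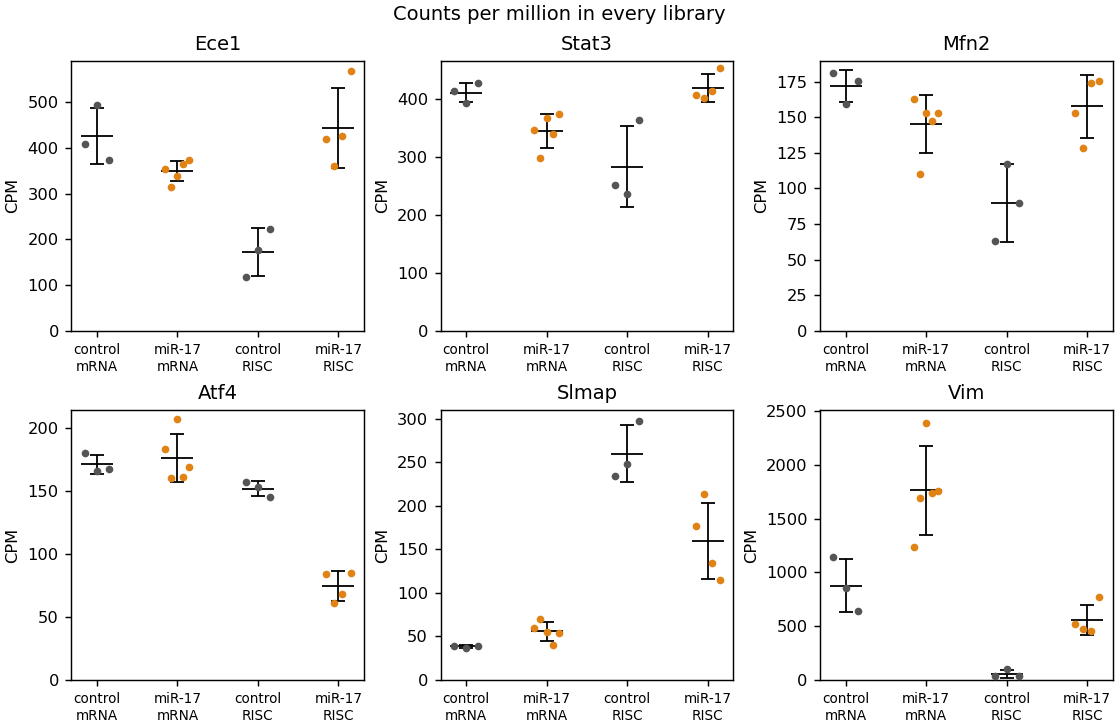
Points are libraries (gray, control; orange, miR-17-5p), in CPM on linear axes from 0, and black marks give the mean and SD of each group, for Ece1, Stat3, Mfn2, Atf4, Slmap and Vim. The RISC groups do not overlap in any of the 6 genes, and in Vim the mRNA libraries also rise, from 642 to 1139 CPM in control cells to 1232 to 2392.

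Of 34 members from the list of stellate cell and fibroblast genes, 25 were called higher in mRNA, 17 higher in RISC and none lower in either (edgeR). In the difference 3 were called higher (Vim, Serpinh1 and Mmp2) and none lower, and 30 lay above 0 with a median of 0.44. Over the 48 listed genes tested the median was 0.40. The median change of the list was 1.21 in mRNA and 1.64 in RISC. Vim, the intermediate filament of mesenchymal cells, had 1139, 851 and 642 CPM in control mRNA and 1232, 1694, 2392, 1741 and 1758 in miR-17-5p mRNA. In RISC it had 34.7, 99.8 and 34.8 CPM in control cells and 523, 476, 457 and 767 with miR-17-5p. It rose in mRNA by 1.01 ± 0.22 and in RISC by 3.31 ± 0.46 (adjusted p 0.0248 and 0.0257, edgeR), and the difference was 2.29 ± 0.49 (adjusted p 0.00584).

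Serpinh1, the collagen chaperone HSP47, had 1239, 837 and 673 against 1430, 2278, 2361, 1970 and 1783 CPM in mRNA and 146, 168 and 213 against 752, 882, 685 and 993 in RISC. Treated libraries were above all controls in both kinds. The difference was 1.14 ± 0.31 (adjusted p 0.0258, edgeR), and its adjusted p was 0.0883 without control mRNA library 1 and 0.071 with DESeq2 size factors. Mmp2, a gelatin-degrading protease, had 18.7, 58.7 and 43.5 against 274, 196, 254 and 376 CPM in RISC, and its difference of 1.65 ± 0.50 (adjusted p 0.0424) had an adjusted p of 0.0507 to 0.124 without control mRNA library 1, 2 or 3, miR-17-5p mRNA library 1, 5 or 6, or miR-17-5p RISC library 6. With DESeq2 size factors, upper quartile factors and TMM factors from the members, the adjusted p of Mmp2 was 0.0751, 0.0524 and 0.0585. Without control RISC libraries 1, 2 and 3 there were 5, 13 and 4 of the 34 members called higher, and without control mRNA library 1 there was 1. The number was 2 without control mRNA library 2 or 3, miR-17-5p mRNA library 1, 5 or 6 or miR-17-5p RISC library 6. With DESeq2 size factors 27 lay above 0 and 1 was called. The summed levels of these genes given above moved with transfection in both kinds of library, and their part in the result was not tested.

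Among genes of the mitochondrial ATP synthase, which makes ATP from the proton gradient, subunits went opposite ways. Atp5a1, the alpha subunit, had 339, 343 and 285 CPM in control mRNA and 311, 339, 242, 303 and 295 in miR-17-5p mRNA. On Ago2 it had 15.6, 14.8 and 18.2 CPM in control cells and 97.2, 85.5, 157 and 212 with miR-17-5p. The mRNA groups overlapped and the RISC groups were far apart. The RISC level rose by 3.11 ± 0.45 (adjusted p 0.0257, edgeR), and the difference of 3.21 ± 0.37 (adjusted p 9.09e-05) was the highest of all members. The SE of the difference was smaller than that of the RISC change it includes. The fit of all libraries shares a gene's spread between mRNA and the more scattered RISC libraries, so this SE can be too small.

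Atp5b, the beta subunit, had 94.1, 51.6 and 99.7 against 140, 146, 134 and 254 CPM in RISC, and its difference of 0.97 ± 0.34 did not pass (adjusted p 0.0739, edgeR). Atp5g1, which encodes the membrane c subunit, had 154, 57.2 and 180 against 23.1, 11.9, 30.1 and 27.3 CPM in RISC, while its mRNA had 194, 191 and 179 against 196, 222, 134, 165 and 147. Only the RISC groups were apart, with lower values in treated libraries, and the difference was −2.37 ± 0.50 (adjusted p 0.00542). Copies of Atp5g1 elsewhere in the genome share sequence with it, so its counts are uncertain. Over the 8 members of the respiratory chain and ATP synthase, Atp5a1 was called higher and Atp5g1 lower, and the median was −0.56. Over all 51 listed genes that were tested, most of them under the count limit, the median had the opposite sign, 0.56. Leaving out control RISC library 1, 2 or 3 or miR-17-5p RISC library 2, 4 or 5 gave 2 called higher.

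Of 23 ribosomal protein members, 3 were called lower in the difference (Rpl27, Rpl28 and Rpl21) and none higher, with a median of −0.05. Over all 72 listed genes that were tested the median was 0.45. Rpl27 had 267, 194 and 142 CPM in control mRNA and 272, 434, 330, 252 and 246 in miR-17-5p mRNA, against 137, 71.2 and 85.3 in control RISC and 36.9, 43.1, 46.2 and 44.4 in miR-17-5p RISC. Rpl28 had 437, 341 and 289 against 416, 596, 491, 478 and 466 CPM in mRNA and 48.5, 92.0 and 49.6 against 23.6, 20.8, 32.9 and 32.9 in RISC. In both genes the mRNA groups overlapped and the RISC groups did not. The differences were −1.80 ± 0.38 and −1.66 ± 0.35 (adjusted p 0.00489 and 0.00499, edgeR). Other members went the opposite way without passing, such as Rpl4 at 1.15 and Rpl35 at 0.90. Ribosomal protein genes have many near-identical copies, so these counts are uncertain, and without control RISC library 2 there were 2 called higher and 5 lower. Called lower were 2 without control mRNA library 2, control RISC library 1 or miR-17-5p RISC library 2 or 5, and 4 without miR-17-5p RISC library 6. Called higher was 1 without control RISC library 1 or 3 or miR-17-5p RISC library 2, 4 or 5.

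Losses on Ago2 with little change in mRNA also included a stress-response factor. Atf4, the transcription factor made when the integrated stress response slows translation, had 180, 165 and 168 CPM in control mRNA and 183, 160, 207, 161 and 169 in miR-17-5p mRNA. Its RISC libraries held 157, 153 and 145 CPM in control cells and 84.2, 61.3, 67.9 and 84.5 with miR-17-5p. The mRNA groups overlapped while every treated RISC library lay well below the controls, and the difference was −1.07 ± 0.23 (adjusted p 0.00528, edgeR). It was the only 1 of 34 members of the list of chaperones and protein folding genes of the endoplasmic reticulum that was called, with 3 called higher without control RISC library 1, 5 without control RISC library 2 and 2 without miR-17-5p RISC library 4. LOC100188932, an unnamed locus in the tables, had 187, 166 and 149 against 209, 239, 194, 230 and 194 CPM in mRNA and 93.9, 174 and 108 against 28.2, 55.6, 38.1 and 35 in RISC. Neither pair of groups overlapped, and the difference was −2.02 ± 0.34 (adjusted p 0.000959).

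Both Slmap and Strn3, which belong to the STRIPAK phosphatase complex, were more abundant in RISC than in mRNA libraries of control cells, and less so with miR-17-5p. Slmap had 39.0, 36.5 and 39.2 CPM in control mRNA, 59.1, 69.3, 55.2, 40.4 and 53.4 in miR-17-5p mRNA, 234, 248 and 297 in control RISC and 176, 213, 134 and 114 in miR-17-5p RISC. Strn3 had 23.2, 19.3 and 23.9, then 32.7, 29.8, 26.3, 26.7 and 28.7, then 116, 157 and 104, and then 69.3, 50.4, 52.2 and 59.1 CPM in these 4 groups. In both genes the treated libraries were higher than all controls in mRNA and lower in RISC. The differences were −1.24 ± 0.32 and −1.51 ± 0.38 (adjusted p 0.0181 and 0.0151, edgeR). For Slmap the adjusted p was 0.054 without control RISC library 3 and 0.0712 without miR-17-5p RISC library 5, and for Strn3 it was 0.0545 without miR-17-5p RISC library 5. Otub1, a deubiquitinating enzyme, had 169, 327 and 223 against 128, 90.7, 110 and 70.7 CPM in RISC, with overlapping mRNA groups. Its difference was −1.38 ± 0.33 (adjusted p 0.0129), with 0.0692 without control RISC library 2 and 0.0615 without miR-17-5p RISC library 4.

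In the silencing machinery itself none of 18 members was called by edgeR, with 2 at an unadjusted p under 0.05 and a median difference of 0.01. Eif2c2, the symbol of Ago2 in these tables, had 24.2, 39.0 and 47.4 against 31.7, 30.5, 32.4, 31.9 and 31.3 CPM in mRNA and 191, 82.4 and 71.3 against 282, 229, 224 and 130 in RISC. Its groups overlapped in both kinds of library, and the difference was 1.13 ± 0.48 (adjusted p 0.147). Tnrc6b, a scaffold that joins Argonaute to the deadenylases, had 893, 735 and 761 against 570, 560, 435 and 316 CPM in RISC without overlap, and a difference of −0.59 ± 0.37 (adjusted p 0.389). Its relative Tnrc6a was at 0.04 ± 0.25. Without control RISC libraries 1 and 2, 1 and 2 of the 18 were called higher.

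For islet hormones and other secreted islet peptides no difference was detectable. None of 11 members was called by edgeR, with 0 at an unadjusted p under 0.05, and the median was −0.09. Ins1 and Ins2, the rat insulin genes, had differences of −0.17 ± 0.30 and −0.09 ± 0.36, and their reads cannot be fully told apart. Among 12 beta cell transcription factors, St18 was called lower, at −1.02 ± 0.29 (adjusted p 0.0296, edgeR), with 573, 583 and 672 against 240, 237, 328 and 210 CPM in RISC and overlapping mRNA groups. It was not called without control mRNA library 1 or 3, without any control RISC library, or without miR-17-5p RISC library 2, 4 or 6. Of the 12 factors 1 was called higher without miR-17-5p mRNA library 1, without any control RISC library, or without miR-17-5p RISC library 2, 4 or 5. None of the 12 was called in mRNA or in RISC alone by edgeR, with 8 and 6 at an unadjusted p under 0.05, where the list's medians were −0.50 and −0.61 and 1 of 12 lay above 0 in each. The median difference was −0.04, and 0.10 over the 18 listed factors tested. None of 23 members of secretory granules and exocytosis was called, with 2 at an unadjusted p under 0.05 and a median of 0.17. Without control RISC libraries 1, 2 and 3 there were 1, 3 and 3 of these called higher, and without miR-17-5p RISC libraries 2, 4 and 5 or miR-17-5p mRNA library 1 there were 2, 2, 1 and 1. Of the hormone list 1 was called without control RISC library 2 or miR-17-5p RISC library 5.

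Of 18 translation factors, Eef2, the elongation factor that moves the ribosome along, was called higher, with 515, 836 and 629 against 1235, 1195, 1377 and 1965 CPM in RISC and overlapping mRNA groups. The difference was 1.02 ± 0.26 (adjusted p 0.0179, edgeR), with 0.056 without control mRNA library 1. Of 27 cytoskeleton and adhesion genes, Sptbn1, the spectrin under the cell membrane, was called higher (0.86 ± 0.26, adjusted p 0.042). It was not called without any 1 of the 3 control mRNA libraries, without miR-17-5p mRNA library 1, 2 or 5, or without miR-17-5p RISC library 6, and its adjusted p was 0.0691 with DESeq2 size factors and 0.0563 with upper quartile factors. Without control RISC libraries 1, 2 and 3 there were 3, 3 and 1 translation factors and 2, 7 and 5 cytoskeleton and adhesion genes called higher, and without miR-17-5p RISC libraries 2, 4 and 5 there were 3, 4 and 2 of the latter. No member was called by edgeR among 36 RNA binding and splicing genes, 21 of insulin and growth factor signalling or 26 chromatin and transcription regulators, with 4, 3 and 0 at an unadjusted p under 0.05. Their medians were −0.09, −0.20 and −0.07. Of the RNA binding and splicing genes 8 were called higher without control RISC library 2, 3 without control RISC library 3, 2 without control RISC library 1 or miR-17-5p RISC library 4, and 1 without miR-17-5p RISC library 2 or 5. Without miR-17-5p mRNA library 2, 2 were called lower. Of the signalling genes 1 was called higher without control RISC library 1 or 2, and of the chromatin genes 1 without control RISC library 1.

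**Figure D5:**
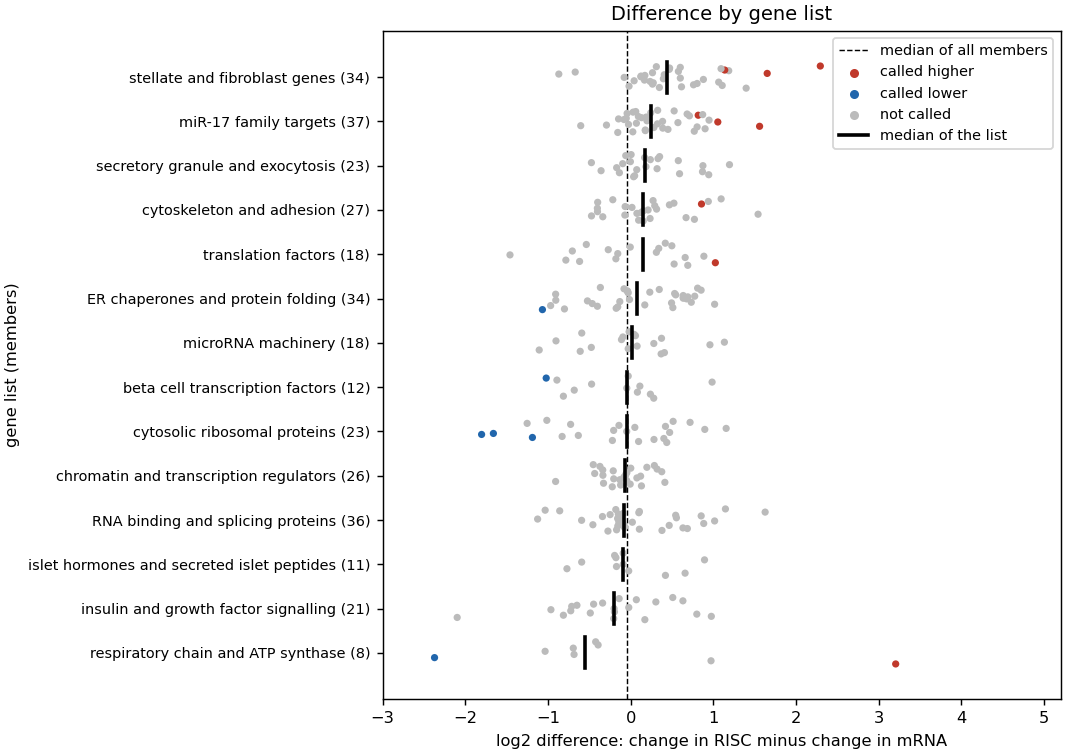
Points are members of each gene list at their log2 difference (change in RISC minus change in mRNA), colored where called, with the median of each list as a black bar and the median of all members, −0.05, as a dashed line. List medians run from −0.56 for the 8 respiratory chain and ATP synthase genes to 0.44 for the 34 stellate and fibroblast genes, an order that holds for members only. Over all tested genes of these lists the median was 0.56 for the first and 0.40 for the second.

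Called members outside these lists that held with every library left out came from varied functions. Cdh2, the adhesion molecule N-cadherin, had 19.9, 49.2 and 23.0 against 138, 157, 151 and 201 CPM in RISC, and a difference of 2.05 ± 0.41 (adjusted p 0.0033, edgeR). Uchl1, a deubiquitinating enzyme of neurons and endocrine cells, had 19, 15.3 and 21.4 against 38.0, 55.0, 29.3 and 29.4 CPM, and a difference of 1.52 ± 0.35 (adjusted p 0.00928). Kpnb1, the nuclear import receptor importin beta, had 195, 182 and 150 against 334, 400, 393 and 380 CPM, and a difference of 0.86 ± 0.20 (adjusted p 0.00965). In each of the 3 genes all treated RISC libraries were above all controls. Taf6, a subunit of the general transcription factor TFIID, had 24.0, 3.24 and 6.38 against 66.5, 56.0, 64.1 and 94.4 CPM, with a wide error on its difference of 2.95 ± 0.73 (adjusted p 0.0141). Gna12, a G protein subunit that signals to the cytoskeleton, had 63.7, 59.3 and 45.8 against 91.0, 116, 93.7 and 93.6 CPM, and a difference of 0.90 ± 0.23 (adjusted p 0.0162).

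Groups of Ago2 level relative to mRNA, formed by setting each RISC library against the mean of the mRNA libraries of its transfection, did not overlap for 60 of 60 members called higher and 31 of 32 called lower. Among all members this held for 263 upward and 237 downward, 14.9% of the 3362, where 2.74% were called. The called members were picked for their difference in these same libraries, so their separation follows largely from that selection and is no support. Setting libraries against a mean also leaves out the scatter of the mRNA libraries. Across members the changes in mRNA and in RISC correlated with Pearson's r of 0.415 and Spearman's rho of 0.306. This is a description over 3362 genes that share libraries and are not independent replicates.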

How the data were processed

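Deposited values were raw counts per gene, 1 table per library, made by the authors: per the submitters' processing notes, alignment used TopHat2 2.0.10 with Bowtie2 on the rat build rn5, and counting used HTSeq. For Bowtie2 and HTSeq a version is not given in those notes. Per the labels' protocols the single-end reads carry no strand information, so a gene cannot be separated from one that overlaps it on either strand. Lines of the counting program that name no gene stayed out of all totals (alignments not unique, 15.0% to 31.2% of a library, and ambiguous ones, 0.151% to 0.454%). The series tables were not used here. Of the members, 3328 of 3362 matched a RefSeq symbol or synonym.

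Sample titles gave the groups. The difference was fitted in R 4.3.3 with edgeR 4.0.16 over all 15 libraries with 1 mean per group, after filterByExpr and with TMM factors, by two-sided quasi-likelihood F-tests with robust settings. Adjustment ran over all genes tested (11418 in the difference, 11077 in mRNA, 9443 in RISC), and an adjusted p under 0.05 was called. The SE is the size of the log2 change divided by the square root of F. One fit assumes 1 spread per gene over mRNA and RISC libraries, with a common biological coefficient of variation of 0.871 in the fit of all libraries, 0.305 in mRNA alone and 1.23 in RISC alone. CPM use the TMM factors, and log2 CPM a prior count of 2. An exact permutation of transfection labels within each library type (1960 relabellings) was also run on the 92 called members. It tests for no effect of transfection in either kind of library, not for equal change in both, so it is void as a test of the difference, and its p-values are not given. Scripts were tested on simulated data.

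Members and the 21 gene lists, written from general knowledge, were chosen with earlier results of these data known, so list counts and medians are descriptions with no test. Listed members of acinar, macrophage, Schwann cell and red blood cell genes were 0, of endothelial genes 1 (Eng, difference 0.76), of duct genes 4 (median −0.02) and of abundant noncoding RNAs 3 (median 0.22). None of these 8 was called by edgeR, and none had an unadjusted p under 0.05. Genes named were, for each direction, the 10 of smallest p, up to 3 per list by p, up to 12 called in RISC, the hormone genes with Lgals3, Gyltl1b and Crispld1, and 3 at each side of the count limit, except some that are not reported here. Further genes were picked after their values were seen: Hif1a, Cdkn1a, Sqstm1, Ccnd1, Ccnd2, Smad4, Smad7, Rpl4, Rpl35, Tnrc6a, Tnrc6b, Nsf, Uchl1, Kpnb1, Taf6, Gna12 and those of the closing part. Alternatives were DESeq2 1.42.0 size factors, upper quartile factors, TMM factors from members, a filter of at least 50 counts on average or no filter, the DESeq2 Wald test, limma-voom (limma 3.58.1), 2 replicate blocks, each library left out, and limits of 10 or 50 counts. A mean of at least 500 counts was added after seeing the data.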

Additional observations from a re-analysis of the deposited data

Results flagged for a closer look

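For 92 members the change in RISC differed from the change in mRNA by the test of that difference (edgeR), as described above.

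In 158 groups of 4 or 5 libraries of named genes, 10 had a library far from the others by Dixon's ratio (gap to the nearest library over the range, on log2 CPM), where chance flags about 1 in 20. Among miR-17-5p mRNA libraries, library 2 was lowest for Mfn2 (0.746; 110 CPM, next 148) and for Pnisr, a splicing-related protein (0.913; 59.5 CPM, next 115). The same library was highest for Atp5b (0.74; 704 CPM, next 593) and for Eng, an endothelial receptor of TGF-beta (0.875; 248 CPM, next 151). Library 5 was lowest for Tardbp, an RNA-binding protein (0.768; 59.8 CPM, next 77.2), and library 1 was highest for Ins1 (0.774; 324000 CPM, next 208000).

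Among miR-17-5p RISC libraries, library 6 was highest for Atp5b (0.863; 254 CPM, next 146) and for Rn45s, the ribosomal RNA precursor (0.895; 466000 CPM, next 240000). It was lowest for Per2, a circadian clock gene (0.876; 123 CPM, next 174). Library 4 was highest for Tln1, the adhesion protein talin (0.935; 993 CPM, next 822).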

How the results depend on the processing

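Counts of called members depended strongly on the fit, and 0 of the 92 were called in every fit. No called member changed sign in a fit that tested it, but these members were picked for their difference in the same libraries. With DESeq2 size factors 38 were called higher and 53 lower at a median difference of −0.18, with upper quartile factors 55 and 35, and with TMM factors from members 59 and 34. Of the 92, 69 remained called under all 3 of these scalings and 28 also with every library left out. Without a filter 54 were called higher and 20 lower, with a mean of at least 50 counts 108 and 9 (median 0.14), and with a mean of at least 500 counts 5 and 9 of 2258 members, with 45 called in RISC. The DESeq2 Wald test called 80 higher and 193 lower (median −0.18), 376 in mRNA and 292 in RISC. Limma-voom called 0 higher and 0 lower, with 333 at an unadjusted p under 0.05, 495 in mRNA and 19 in RISC. With at least 10 counts in every library there were 60 and 33 called, and with at least 50 there were 58 and 29. Why these counts moved was not tested.

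Whether same-numbered mRNA and RISC libraries came from the same cells could not be settled. Their deviations from the group mean correlated at −0.112 to 0.101 over 7 pairs, and in 2 of 7 the own number was highest. With so few libraries per group and the wide scatter in RISC, weak correlations cannot exclude pairing. With a replicate block of title number within transfection 1 member was called higher (Atp5a1) and 0 lower (median 0.0808), with 239 at an unadjusted p under 0.05 in edgeR. With a replicate block over both transfections 15 were called higher and 5 lower, and 0 in mRNA (edgeR; 150 at an unadjusted p under 0.05), and the block could not be fitted in RISC alone.

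Leaving out each library in turn gave 30 to 312 members called higher, 10 to 46 lower, medians of −0.0578 to 0.231, 38 to 389 called in mRNA and 0 to 197 in RISC. The 0 in RISC came without miR-17-5p RISC library 2, 5 or 6, where edgeR left 315, 338 and 326 at an unadjusted p under 0.05, and 197 without control RISC library 2. In mRNA 43 and 38 were called without control libraries 2 and 3, 389 without miR-17-5p library 1, and 86, 105 and 113 without miR-17-5p libraries 4, 5 and 6. In RISC 7 and 46 were called without control libraries 1 and 3 and 55 without miR-17-5p library 4.

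Control mRNA library 3 and control RISC library 3 held the lowest count of most members (2171 and 471). Tested genes under 20 counts were most numerous in control RISC libraries 1, 2 and 3, at 5110, 4951 and 6702. Control mRNA library 3 had 3177 such genes. Control RISC library 1 had the highest total of the RISC libraries, 13420403 counts. The part of depth in these numbers was not tested.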

Other observations

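Pkm, Aldoa and Fdps, picked from the called members after their values were seen, had higher RISC values in every treated library and overlapping mRNA groups. Pkm, the last enzyme of glycolysis, had 502, 731 and 556 CPM in control RISC and 885, 1033, 1225 and 1980 in miR-17-5p RISC, and the difference was 1.20 ± 0.33 (adjusted p 0.0254, edgeR). It was not called without control mRNA library 1 or with DESeq2 size factors. Aldoa, which splits fructose bisphosphate, had 231, 257 and 116 against 549, 544, 460 and 557 CPM, and the difference was 1.13 ± 0.32 (adjusted p 0.0298). It was called in 10 of 15 fits with a library left out, the exceptions being control mRNA libraries 1 and 2 and miR-17-5p mRNA libraries 1, 5 and 6, and it was not called with DESeq2 size factors. Fdps, an enzyme of the sterol pathway, had 29.4, 24.7 and 24.4 against 55.8, 62.3, 62.7 and 40.1 CPM, and the difference was 1.26 ± 0.32 (adjusted p 0.016), not called without control mRNA library 2.

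Wfs1, a protein of the endoplasmic reticulum that beta cells need, had 149, 142 and 178 CPM in control mRNA and 109, 39.7, 58.3, 112 and 84.6 in miR-17-5p mRNA, against 130, 90.1 and 112 in control RISC and 152, 125, 175 and 170 in miR-17-5p RISC. Treated libraries were all lower in mRNA, and the RISC groups overlapped. The difference was 1.44 ± 0.42 (adjusted p 0.0338, edgeR), and it was not called without control mRNA library 1, 2 or 3, miR-17-5p mRNA library 4 or 6, or miR-17-5p RISC library 6.

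Some of the genes called in RISC were not called in the difference. Lgals3, the lectin galectin-3, fell in mRNA by 1.20 ± 0.26 and in RISC by 1.93 ± 0.27 (adjusted p 0.0248 and 0.0257, edgeR), and its difference was −0.76 ± 0.42 (adjusted p 0.303). Gyltl1b, a glycosyltransferase, had 327, 304 and 248 against 83.4, 57.3, 103 and 81.8 CPM in RISC, and its difference was −1.06 ± 0.36 (adjusted p 0.0674). Bgn, a matrix proteoglycan, rose in mRNA by 1.42 ± 0.25 and in RISC by 2.06 ± 0.21 (adjusted p 0.00887 and 0.0115), and its difference was 0.61 ± 0.34 (adjusted p 0.311).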
